A study of Mus musculus with 30 samples.

Results

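The 9 genes described here encode the precursors of the brain's opioid and tachykinin peptides and the receptors of the opioid peptides: Pdyn, Penk, Pnoc, Tac1 and Tac2, and Oprm1, Oprk1, Oprd1 and Oprl1. They were taken by name from the 19737 genes of the deposited table, all 9 were present, and all 9 passed the filter on low values (a mean of at least 10 normalized counts) in every comparison. They were chosen by name with the measured differences between the 6 groups in view, so every comparison counts as used in the choice. The p-values printed for them are therefore descriptions of the 9 genes and not independent tests. They set a group difference against the spread between the mice sequenced. RNA was sequenced from the whole brain of male C57BL/6N mice that were wild-type (WT) or heterozygous for a deletion in Arid1b (HT), made by genome editing and carried in every cell. Arid1b encodes a subunit of a chromatin remodeling complex. There were 6 groups of 5 libraries. P10-WT and P10-HT were untreated mice at postnatal day 10. WT-Veh, HT-Veh, WT-Flx and HT-Flx were mice at postnatal day 120 whose dams had drunk water with 0.2% saccharin from pup day 3 to pup day 21, alone (Veh) or with 0.1 mg/ml of fluoxetine (Flx), a serotonin reuptake inhibitor that reached the pups through the milk. The P120 mice had normal water from weaning at day 21 onward, so nearly all of their life followed the treatment.

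Opioid and tachykinin peptides are not translated as such. A neuron makes a long precursor, packs it into dense-core vesicles, and proteases cut the short peptides out of it, usually at pairs of basic residues. Opioid receptors couple to inhibitory G proteins, which lower cyclic AMP, open potassium channels and close calcium channels, whereas the tachykinin receptors couple to a G protein that raises intracellular calcium. In the striatum, Penk is the classical transcript of the indirect-pathway projection neurons, which carry the dopamine receptor Drd2, and Pdyn and Tac1 are those of the direct-pathway projection neurons, which carry Drd1. Tac2 is strong in the medial habenula, and Pnoc is found in many GABAergic interneurons.

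The coding stretches below show what each precursor carries, since the precursors differ in how many peptides one transcript can give. Each run is 5′ to 3′ on the coding strand, read from the GENCODE M21 transcripts on GRCm38. The codons of the peptide core are in capitals and the codons beside it in lower case. For Penk and Pdyn the copy nearest the start of the coding sequence is shown for each kind of core.
Penk Met-enkephalin, chr4:4134328-4134354, minus strand, exon 2: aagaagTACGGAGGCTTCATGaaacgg
Penk Leu-enkephalin, chr4:4133935-4133961, minus strand, exon 2: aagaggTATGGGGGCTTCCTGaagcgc
Pdyn Leu-enkephalin, chr2:129688232-129688258, minus strand, exon 4: aaacgcTATGGCGGCTTTTTGcgcaaa
Pnoc start of nociceptin, chr14:65404875-65404898, minus strand, exon 3: aaaaggTTTGGGGGCTTCaccggg
Tac1 first tachykinin end, chr6:7556744-7556770, plus strand, exon 3: cagcagTTCTTTGGATTAATGggcaag
Tac1 second tachykinin end, chr6:7559110-7559136, plus strand, exon 6: gattccTTTGTTGGACTAATGggcaaa
Tac2 tachykinin end, chr10:127729125-127729151, plus strand, exon 6: gacttcTTTGTGGGACTTATGggcaag

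The Penk transcript held 6 Met-enkephalin cores and 1 Leu-enkephalin core, all in exon 2. Pdyn held 3 Leu-enkephalin cores, which begin its dynorphin-type peptides, all in exon 4. Pnoc held 1 nociceptin core and Tac2 held 1 tachykinin core, that of neurokinin B. The Tac1 cores lie in 2 different exons, those of substance P and neurokinin A, and the transcript shown keeps both. Gene-level values cannot show which of the 5 annotated Tac1 transcripts was present. Nor do they separate strands: the library kit does not mark strand, and 2 members overlap genes on the opposite strand, Penk with A830012C17Rik, and Oprm1 with Gm10945 and Ipcef1. The overlap is one of gene spans, and whether exons are shared was not examined. Only reads from shared sequence could not be told apart from those of the member.

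Levels per length, in normalized counts per kb of transcript, put Penk first in every group. In P10-WT Penk stood at 1708 ± 168 per kb (mean ± SD, n = 5 in each group unless stated), and in WT-Veh at 4085 ± 569 per kb. Oprl1, the nociceptin receptor, was the most abundant receptor in every group, at 766 ± 16.8 per kb in P10-WT and 608 ± 62.0 per kb in WT-Veh. Oprm1, the mu receptor of morphine and endogenous enkephalins, was the lowest member in every group, at 34.3 ± 5.27 per kb in P10-WT and 22.8 ± 5.21 per kb in WT-Veh. In P10-WT the full order was Penk, Oprl1, Tac1, Pdyn, Pnoc, Tac2, Oprk1, Oprd1 and Oprm1, and no member's range of 5 libraries overlapped that of the next. In WT-Veh the order was Penk, Tac1, Oprl1, Pdyn, Tac2, Oprd1, Pnoc, Oprk1 and Oprm1, and the ranges of Tac1 and Oprl1, of Pdyn and Tac2, of Tac2 and Oprd1, and of Oprd1 and Pnoc overlapped. Oprd1, the delta receptor, thus stood below Oprk1, the kappa receptor, at P10 and above it at P120, at 130 ± 24.9 against 59.6 ± 25.1 per kb in WT-Veh.

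**Figure D1:**
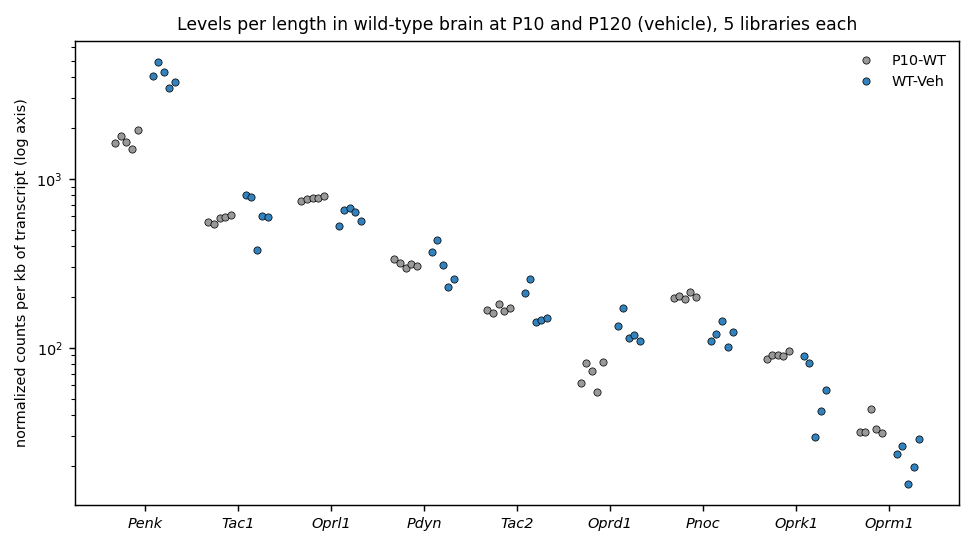
Each point is 1 library, with the 9 genes on the horizontal axis in the order of their WT-Veh means and normalized counts per kb of transcript on a log axis, for P10-WT (grey) and WT-Veh at P120 (blue), 5 libraries each. Penk lies above all other genes at both ages, and the WT-Veh points of most genes are more spread than those of P10-WT.

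The spread of the members differed between the ages. In P10-WT the SD of Oprl1 was 2.20% of its mean, and in WT-Veh 10.2%. For Tac1 the same quantity was 5.28% in P10-WT and 27.3% in WT-Veh, and for Pdyn 4.49% and 26.0%. The widest spread was that of Oprm1 in HT-Flx, at 64.1% of its mean.

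Arid1b itself was checked first, in normalized counts. It ranged from 2162 to 2334 in P10-HT and from 3164 to 3309 in P10-WT, and from 2164 to 2616 in HT-Flx and 2961 to 3392 in WT-Flx, with no overlap. The library labelled HT-Veh replicate 2 had 3361 and the library labelled WT-Veh replicate 2 had 2320, each in the range of the other genotype, so both go against their labels. They stayed under their labels, and the comparison of HT-Veh with WT-Veh used replicates 1, 3, 4 and 5 of each group. The study's supplementary results list the same libraries for this comparison, although its figure legends give 5 mice a group. The other comparisons with vehicle groups include both libraries labelled replicate 2, with values without them given beside the results. The P120 libraries also differed in how strongly their values depended on base composition. This is expressed as a GC tilt, the log2 deviation of the genes highest in GC content (top 10%) minus that of the genes lowest in it (bottom 10%). The tilt was 0.79 to 1.80 in HT-Flx and −0.60 to −0.35 in WT-Flx, −0.56 to 1.12 in HT-Veh and −0.27 to 0.68 in WT-Veh, and −0.86 to −0.47 over the 10 libraries at P10. Main results are therefore given also after correction of each library for the GC content and length of the transcripts. Among the members, Oprk1 had the lowest GC content, 40.7%, in the longest transcript, 4.675 kb, followed by Tac1 with 46.3%, and Oprd1 had the highest, 54.9%. Depth is unknown, because the deposited values are normalized counts that are not whole reads.

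**Figure D2:**
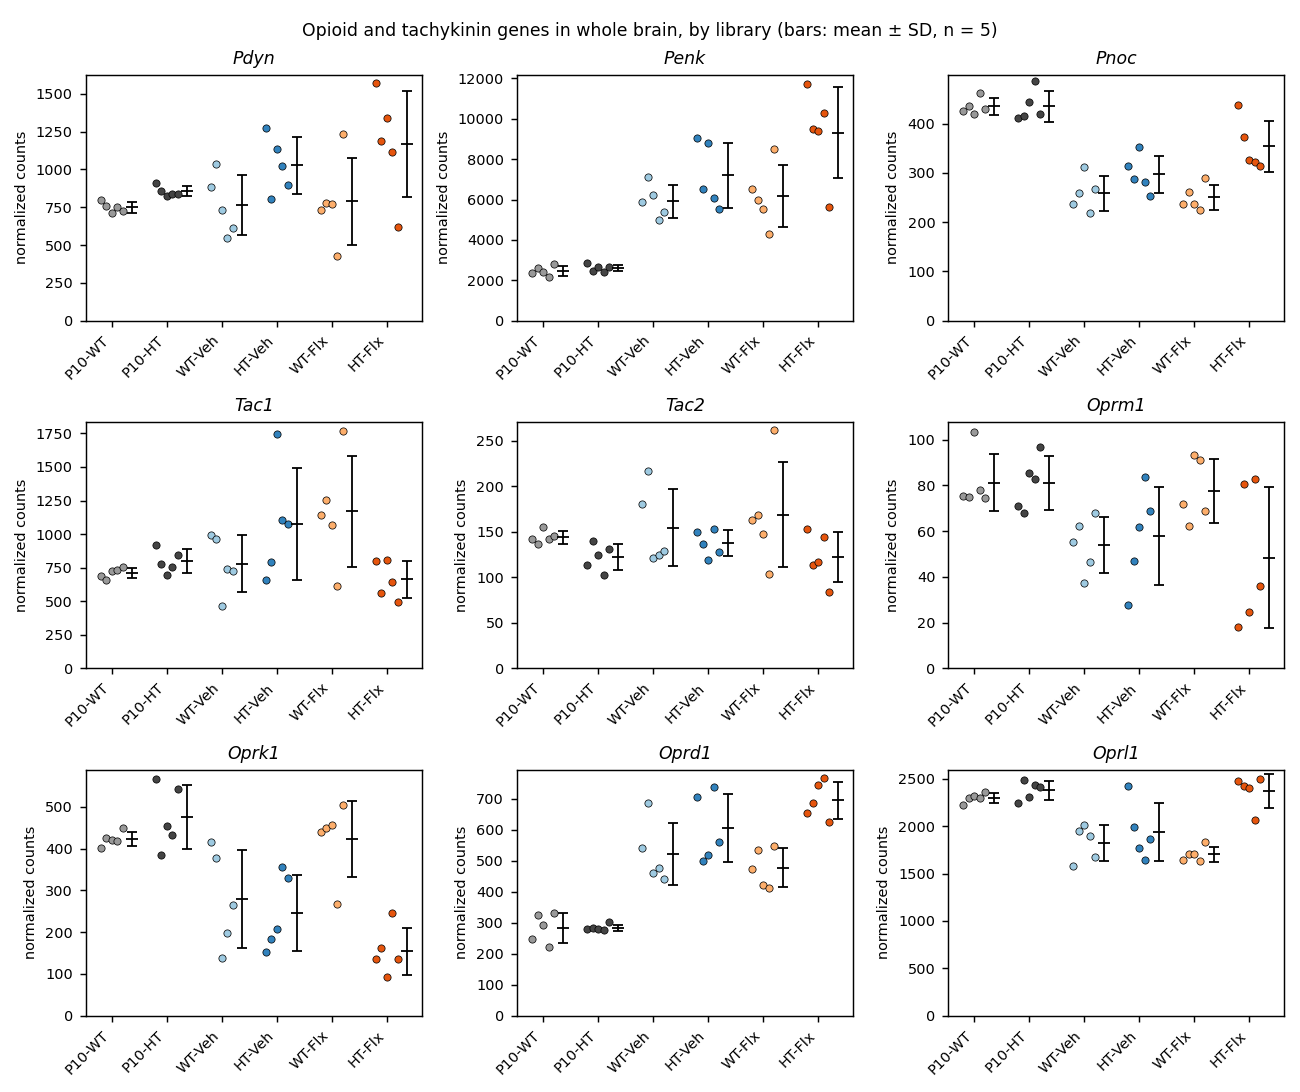
Normalized counts (vertical axis, from 0) of the 9 genes in the 6 groups (horizontal axis), with 1 point per library in replicate order and the mean ± SD beside them, n = 5. The P120 groups lie above the P10 groups for Penk and Oprd1, most P120 points of Pnoc lie below those at P10 (HT-Flx replicate 1, at 438, does not), and the HT-Flx points of Oprk1 lie below those of WT-Flx.

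The comparison of vehicle-treated mice at P120 with untreated mice at P10 of the same genotype was made in WT and in HT. Penk and Oprd1, the enkephalin precursor and the delta receptor that binds enkephalins, were higher at P120 in both genotypes, and Pnoc and Oprl1, the nociceptin precursor and its receptor, were lower. In WT, 2 members were higher and 4 lower at an adjusted p under 0.05, against 28.9% and 29.4% of the 17927 genes tested (58.3% in all, and 59.5% after the correction, which left 5 members called). In HT, 2 members were higher and 3 lower, against 25.8% and 25.3% of 17989 genes (51.1% in all, and 56% after the correction, again with 5 members). The groups did not overlap for 5 members in WT (Penk, Oprd1, Pnoc, Oprl1 and Oprm1) and 4 in HT, against 45.6% and 40.2% of all genes. With so many genes called, nothing about the 9 genes is read from these counts. The median log2 fold change of the 9 genes was −0.01 in WT, as it was over all genes (−0.01), and 0.17 in HT (−0.02 over all genes). The mice at P10 had not been exposed to saccharin, and their libraries may differ from those at P120 in handling. Age, vehicle and such a library difference cannot be told apart. The GC tilt was −0.86 to −0.47 at P10, −0.27 to 0.68 in WT-Veh and −0.56 to 1.12 in HT-Veh.

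In P10-WT, Penk was at 2371, 2611, 2397, 2183 and 2815 normalized counts in replicates 1 to 5. In WT-Veh it was at 5886, 7136, 6202, 4984 and 5389. Every P120 library lay above every P10 library. The log2 fold change was 1.25 ± 0.10 (SE), adjusted p = 2.83e-07, with the higher level in 5 of 5 libraries. In HT, Penk went from 2839, 2474, 2663, 2426 and 2670 in P10-HT to 9035, 6537, 8792, 6077 and 5509 in HT-Veh, again without overlap. Its log2 fold change in HT was 1.43 ± 0.14, adjusted p = 5.08e-06. After the GC and length correction the log2 fold changes were 1.07 in WT and 1.20 in HT, and both passed the threshold.

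Oprd1 was at 249, 325, 292, 220 and 332 normalized counts in P10-WT and at 542, 687, 462, 476 and 441 in WT-Veh. The 2 groups did not overlap, and the log2 fold change was 0.87 ± 0.14, adjusted p = 0.000183. In HT it was at 276 to 301 in P10-HT and 501 to 737 in HT-Veh, a log2 fold change of 1.07 ± 0.13 with an adjusted p of 2.41e-05. After the correction the values were 0.69 and 0.81, both past the threshold. So the delta receptor and the precursor with the most enkephalin copies were higher at P120 with or without the correction.

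Pnoc moved the other way. It was at 426, 437, 420, 462 and 430 normalized counts in P10-WT and at 237, 259, 313, 218 and 268 in WT-Veh, without overlap. The log2 fold change was −0.76 ± 0.10, adjusted p = 2.78e-05. In HT it was −0.55 ± 0.12, adjusted p = 0.00172, with 411 to 487 in P10-HT and 253 to 352 in HT-Veh. Its receptor Oprl1 was at 2218 to 2356 in P10-WT and 1577 to 2008 in WT-Veh, a log2 fold change of −0.34 ± 0.07 with an adjusted p of 0.00148. In HT the Oprl1 groups overlapped, at 2248 to 2489 and 1638 to 2425, and the log2 fold change was −0.31 ± 0.11, adjusted p = 0.0372. That HT call was lost in 9 of the 10 fits that left out 1 library, at an adjusted p of up to 0.0848 (without P10-HT replicate 2), and held only without HT-Veh replicate 1. Without the library labelled HT-Veh replicate 2 the adjusted p was 0.0557. After the correction both Pnoc and Oprl1 stayed past the threshold in both genotypes, at −0.80 and −0.36 in WT and −0.59 and −0.37 in HT.

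The kappa receptor Oprk1, which binds dynorphins, and the mu receptor Oprm1 were also lower at P120 in WT. Oprk1 was at 401, 425, 421, 417 and 449 normalized counts in P10-WT and at 416, 378, 139, 197 and 264 in WT-Veh, and the groups overlapped. Its log2 fold change was −0.71 ± 0.24 in WT (adjusted p = 0.0224) and −1.01 ± 0.22 in HT (adjusted p = 0.00221). The correction reduced these to −0.22 (adjusted p = 0.268) in WT and −0.38 (adjusted p = 0.00673) in HT, so the WT call was lost. It was also lost, at an adjusted p of 0.0574, without WT-Veh replicate 4. For Oprm1 the log2 fold change was −0.60 ± 0.18 in WT (adjusted p = 0.0118), from 74.5 to 103 at P10 to 37.1 to 68.1 at P120. In HT it was −0.56 ± 0.26, which did not pass (adjusted p = 0.0871) except without HT-Veh replicate 4 (adjusted p = 0.0267). Without replicate 2 of HT-Veh and of WT-Veh the age differences were 1.18 in WT and 1.46 in HT for Penk, 0.77 and 1.13 for Oprd1, −0.76 and −0.54 for Pnoc, and −0.85 and −0.93 for Oprk1, all past the threshold. Those of Oprl1 and Oprm1 in WT were −0.37 and −0.66, also past it. Whether WT and HT differed in any age effect was not tested.

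Pdyn, Tac1 and Tac2 did not pass the threshold between the ages in either genotype. Their log2 fold changes in WT were −0.01 ± 0.15 for Pdyn, 0.08 ± 0.17 for Tac1 and 0.06 ± 0.16 for Tac2. Those in HT were 0.25 ± 0.13, 0.35 ± 0.21 and 0.17 ± 0.14. Single libraries mattered here too, since Tac1 in WT reached an adjusted p of 0.0458 without WT-Veh replicate 3, Tac1 in HT 0.0415 without HT-Veh replicate 1, and Pdyn in HT 0.0452 without HT-Veh replicate 2. The precursors of the direct-pathway striatal neurons thus kept levels near those at P10 in the WT means, at 748 ± 33.6 and 763 ± 199 normalized counts for Pdyn and 711 ± 37.5 and 778 ± 212 for Tac1.

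**Figure D3:**
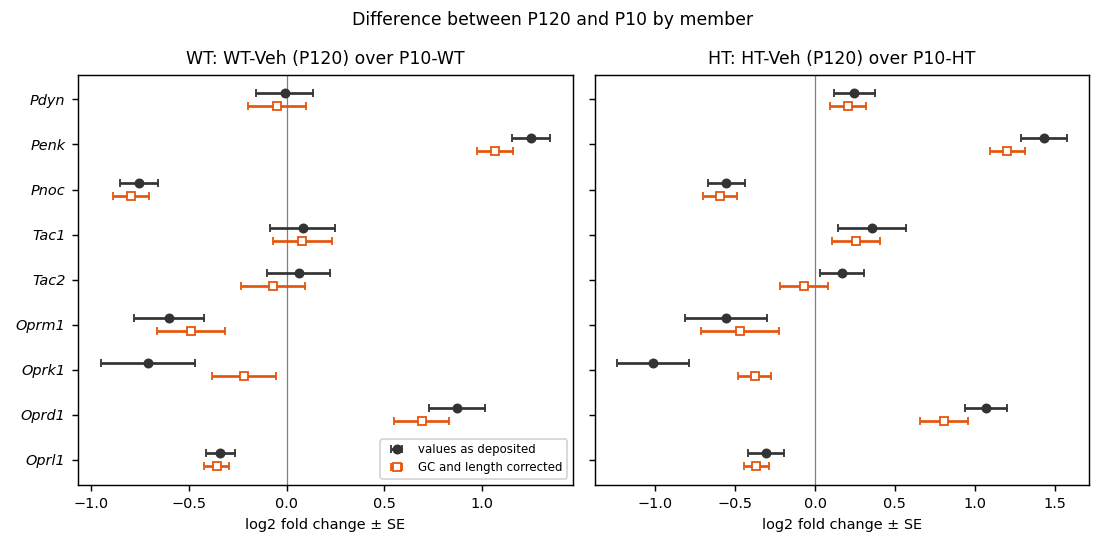
Log2 fold change ± SE (horizontal axis) of the 9 genes between P120 vehicle and P10 in WT (left) and HT (right), 5 against 5 libraries, from the values as deposited (black circles) and after the GC and length correction (open squares). Penk and Oprd1 lie to the right of 0 and Pnoc and Oprl1 to the left of it in both panels, and Oprk1 moves toward 0 under the correction.

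Markers of striatal projection neurons moved in the same direction as Penk between the ages. Of 21 such markers tested, 12 were higher and 1 lower in WT, with a median log2 fold change of 0.45, while 11 were higher and 5 lower in HT. The summed level of the list was 36610 to 38432 normalized counts in P10-WT and 47204 to 71928 in WT-Veh. Drd2, the dopamine receptor of the Penk neurons, had a log2 fold change of 1.02 ± 0.11 in WT (adjusted p = 6.88e-06), and Drd1, the receptor of the Pdyn and Tac1 neurons, one of 0.21 ± 0.28 (adjusted p = 0.546). Of 11 olfactory bulb markers 5 were lower and 0 higher in WT, and of 12 mature oligodendrocyte markers 8 were higher and 0 lower. Over all genes 28.9% were called higher and 29.4% lower in WT, and 25.8% and 25.3% in HT. The part of these shifts in the member values was not tested. In whole brain, fewer cells of a type and less RNA per cell cannot be told apart.

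The rest of the pathway was read from lists of genes with known roles. Of the 6 tested genes of the other opioid and tachykinin list, Tacr1 and Tacr3, the receptors of substance P and neurokinin B, were lower at P120 in WT (log2 fold change −0.60 ± 0.09, adjusted p = 0.00011, and −0.64 ± 0.14, adjusted p = 0.00199). Pomc, the precursor of beta-endorphin, was higher in WT, at 1.00 ± 0.29 (adjusted p = 0.0101), from 34.1 to 83.1 normalized counts to 71.0 to 208. The summed pituitary markers, a list that holds Pomc, were at 70.6 to 224 in P10-WT and 147 to 955 in WT-Veh, and their part in the Pomc difference was not tested. Tac4 and Tacr2 were not analysed here. In all, 2 of the 6 were higher and 4 lower in WT, and 1 higher and 3 lower in HT. Of 10 genes of precursor processing, 6 were higher and 3 lower in WT. They included Pcsk2, the prohormone convertase that makes most small opioid peptides, at 0.64 ± 0.08 (adjusted p = 2.69e-05), and Pcsk1n, an inhibitor of the other convertase Pcsk1, at 1.07 ± 0.09 (adjusted p = 5.45e-07). Pam and Cpe, which amidate and trim the cut peptides, were higher as well, at 0.43 ± 0.07 (adjusted p = 0.000151) and 0.42 ± 0.07 (adjusted p = 0.000199). In HT, 3 of the 10 were higher and 2 lower. After the correction the counts were 6 higher and 2 lower in WT and 5 and 1 in HT, where 59.5% and 56% of all genes were called. The processing genes called lower are not named here. Values of single list genes between the ages are those before the correction. Beside these list counts, 28.9% of all genes were called higher and 29.4% lower in WT, and 25.8% and 25.3% in HT.

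Of 12 peptidases that break these peptides down, 4 were higher and 5 lower in WT, and 3 higher and 3 lower in HT. Ace, which cleaves enkephalins among other substrates, was at 1.32 ± 0.09 in WT (adjusted p = 5.46e-08), and Prep, a prolyl peptidase, at −1.08 ± 0.07 (adjusted p = 5.83e-08). Of 23 genes that act downstream of the receptors, 10 were higher and 7 lower in WT, among them Kcnj9, a G protein-gated potassium channel subunit, at 1.12 ± 0.09 (adjusted p = 4.26e-07), and Gnai3, an inhibitory G protein subunit, at −1.02 ± 0.12 (adjusted p = 1.15e-05). In HT, 8 were higher and 7 lower. For comparison, of 24 other neuropeptide genes tested in WT, 10 were higher and 8 lower. Among them were Oxt, the oxytocin precursor, at 1.84 ± 0.25 (adjusted p = 3.82e-05), and Nts, the neurotensin precursor, at −1.36 ± 0.13 (adjusted p = 2.24e-06). The shares over all genes were 28.9% higher and 29.4% lower in WT, and 25.8% and 25.3% in HT. With so many genes called, nothing about these lists is read from their counts.

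At P10 the question was whether loss of an Arid1b copy moved these genes in untreated pups. None of the 9 members passed the threshold in limma, 0 of 9 against 0.0224% of the 17896 genes tested (0.0112% in each direction), and 3 of the 9 (Pdyn, Tac1 and Tac2) and 2249 of all genes had an unadjusted p under 0.05. Pdyn, the dynorphin precursor, was at 912, 856, 827, 840 and 840 normalized counts in P10-HT and at 797, 759, 712, 752 and 722 in P10-WT. It was the only member whose groups did not overlap, which held for 3.12% of all genes (1.43% higher and 1.69% lower in HT). The log2 fold change was 0.19 ± 0.05 (adjusted p = 0.256), and an exact two-sided permutation test gave p = 0.00794, the smallest value that 5 against 5 libraries allow. Tac1 had a log2 fold change of 0.16 ± 0.07 and Tac2 one of −0.24 ± 0.10, with adjusted p-values of 0.383 and 0.365. The other 6 members had log2 fold changes between −0.01 and 0.16. The hindbrain and midbrain markers had a median log2 fold change of −0.40 here, with 0 of the 11 tested called. Of the 12 in the list, 3 were at 0 in some P10-HT library, so this median rests partly on low genes. The part of this shift in the member values was not tested.

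At P120 after vehicle, HT-Veh and WT-Veh were compared with 4 libraries each. None of the 9 members and 0% of the 17784 genes were called by limma, while 2 members (Pdyn and Oprd1) and 229 genes in all had an unadjusted p under 0.05. Pdyn was at 1276, 1138, 1020 and 894 normalized counts in HT-Veh replicates 1, 3, 4 and 5 and at 885, 733, 549 and 613 in the same replicates of WT-Veh. The groups did not overlap, as for 1.04% of all genes (0.534% higher and 0.506% lower in HT-Veh), but the lowest HT-Veh value of 894 stood close to the highest WT-Veh value of 885. The log2 fold change was 0.65 ± 0.19, unadjusted p = 0.00498, adjusted p = 1.00 by limma. With all 5 and 5 libraries, 2 of which go against their labels, it was 0.45 and the groups overlapped. Tac1 had a log2 fold change of 0.61 ± 0.30, Oprd1 of 0.38 ± 0.16 and Penk of 0.36 ± 0.19, none past the threshold. The median log2 fold change of the 9 members was 0.21, against 0.01 over all genes. The 9 values come from the same libraries and are not separate observations, so no shift of the set is read from this median. The 21 striatal markers had a median of 0.27 in the same libraries, and the part of this shift in the member values was not tested.

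Early fluoxetine was compared with vehicle within each genotype, and the HT and WT comparisons share no libraries. The drug was given through the dams and the labels give no litters. Mice of the same dam may therefore have been counted as separate units in the fluoxetine p-values. In neither did limma call a member or any gene, 0% of 17676 genes in HT and 0% of 17865 in WT, although 4082 and 4504 genes and 3 and 2 members had an unadjusted p under 0.05. In HT these were Tac1, Oprk1 and Oprl1, and in WT Oprm1 and Oprk1. The groups overlapped for each of the 9 members in both comparisons, while 1.62% of all genes in HT and 6.41% in WT did not overlap (2.29% higher and 4.12% lower in WT-Flx).

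Tac1 was at 799, 560, 810, 641 and 497 normalized counts in HT-Flx and at 659, 795, 1746, 1106 and 1078 in HT-Veh. All 5 HT-Flx libraries lay below the HT-Veh mean, and HT-Veh replicate 3 lay far above the other 4. The log2 fold change was −0.65 ± 0.24 (adjusted p = 0.215), and −0.48 after the correction. In WT, Tac1 was at 1141, 1257, 1066, 615 and 1770 in WT-Flx and at 991, 960, 466, 742 and 728 in WT-Veh. There the log2 fold change was 0.56 ± 0.26 (adjusted p = 0.201), and 0.46 after the correction. The precursor of substance P thus had values of opposite sign in HT and WT, neither past the threshold.

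Oprk1 was at 136, 163, 92.2, 245 and 136 normalized counts in HT-Flx and at 153, 183, 208, 355 and 330 in HT-Veh. In WT-Flx it was at 441, 450, 457, 268 and 505. The log2 fold change was −0.66 ± 0.28 in HT and 0.68 ± 0.28 in WT, with adjusted p-values of 0.215 and 0.160. Oprk1 and other members differed with the GC tilt of the libraries. Over the 20 libraries at P120, Pearson's r of log2 level with tilt was −0.857 for Oprk1, 0.876 for Oprl1 and 0.839 for Pnoc. It was 0.757 for Penk, −0.729 for Oprm1, 0.564 for Pdyn, 0.55 for Oprd1, −0.447 for Tac1 and −0.323 for Tac2. The groups differed in tilt, so tilt and group cannot be told apart in these values. For Oprk1, the 2 HT-Veh libraries with a negative tilt, replicates 4 and 5, had the 2 highest HT-Veh values. In WT-Veh the order was not as regular. Replicate 3, with the highest tilt, had the lowest value, 139, but replicate 5, with the lowest tilt, had 264. Replicate 2, at a tilt of 0.17, had 378, and replicate 4, at 0.12, had 197. Over the 20 libraries at P120, Oprk1 was at 92.2 to 245 in the 9 libraries with a tilt above 0.5 and at 197 to 505 in the other 11. All HT-Flx libraries were above 0.5 and all WT-Flx libraries below it, so this split of the Oprk1 values partly restates the group difference. After the correction the log2 fold change was −0.04 in HT and 0.35 in WT, and among the libraries with a tilt above 0.5 alone, 5 HT-Flx and 3 HT-Veh, it was −0.29. Among those below it, 5 WT-Flx and 4 WT-Veh, it was 0.46.

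Oprl1 was at 2474, 2418, 2400, 2067 and 2502 normalized counts in HT-Flx and at 2425, 1995, 1767, 1638 and 1864 in HT-Veh, a log2 fold change of 0.30 ± 0.13 (adjusted p = 0.215) that was 0.21 after the correction. Oprm1 was at 71.9, 62.3, 93.3, 91.2 and 68.6 in WT-Flx and at 55.4, 62.3, 37.1, 46.5 and 68.1 in WT-Veh. Its log2 fold change in WT was 0.53 ± 0.19 (adjusted p = 0.135), with 5 of 5 WT-Flx libraries above the WT-Veh mean, and 0.48 after the correction. The HT-Flx libraries split for Oprm1, at 80.5 and 82.8 in replicates 2 and 4 and at 18.0 to 36.1 in the other three. Penk, Pdyn and Pnoc had log2 fold changes of 0.36, 0.14 and 0.25 in HT and of 0.03, 0.01 and −0.04 in WT, none past the threshold. Without replicate 2 of the vehicle groups again no member was called by limma, in fits whose share of all genes is not given here. The log2 fold changes were then −0.74 for Tac1, −0.75 for Oprk1 and 0.32 for Oprl1 in HT, and 0.65 for Tac1, 0.82 for Oprk1 and 0.59 for Oprm1 in WT.

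**Figure D4:**
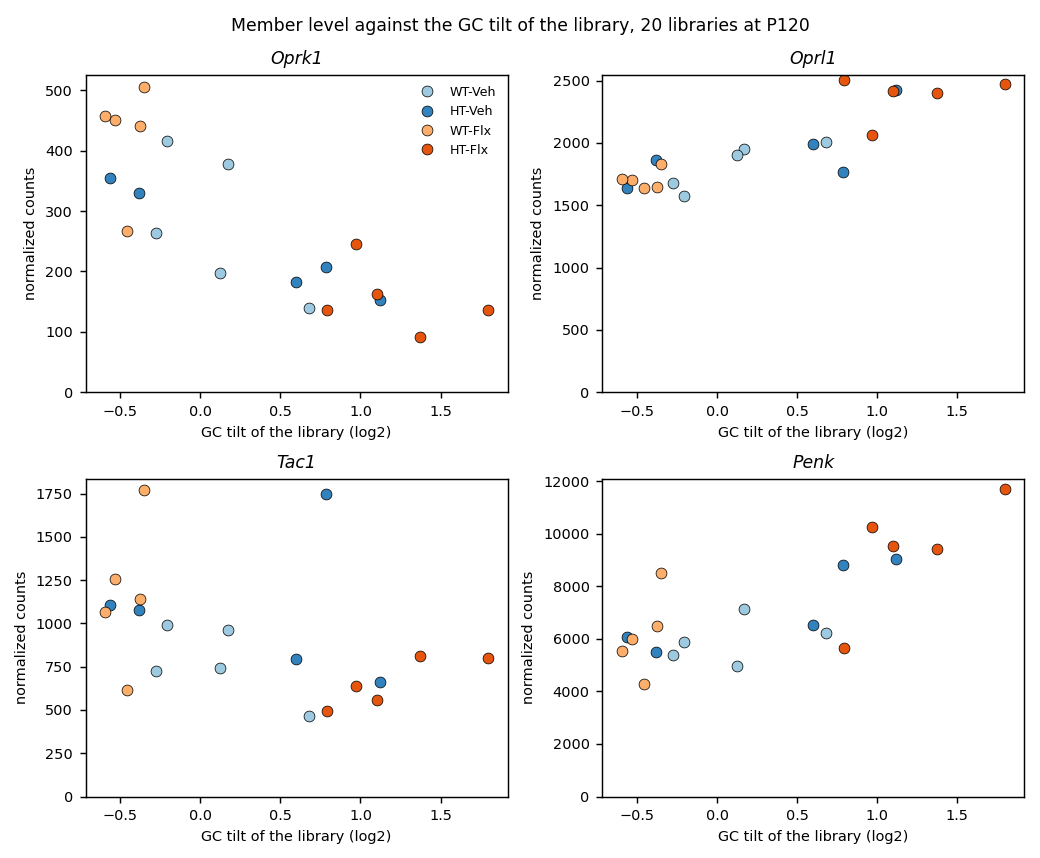
Normalized counts (vertical axis, from 0) of Oprk1, Oprl1, Tac1 and Penk against the GC tilt of the library (horizontal axis, log2) in the 20 libraries at P120, 1 point per library and 1 color per group. All HT-Flx libraries have a tilt of 0.79 or more and all WT-Flx libraries one of −0.35 or less, and Oprk1 is lower and Oprl1 higher in the libraries with the larger tilt.

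Between the genotypes after fluoxetine, HT-Flx against WT-Flx, 4 members were higher and 2 lower in HT-Flx at an adjusted p under 0.05. In this comparison 33.1% of the 17799 genes were called higher and 30.5% lower (63.7% in all), and all HT-Flx libraries had a positive GC tilt and all WT-Flx libraries a negative one, so genotype and tilt cannot be told apart in these 10 libraries. After the correction 36.3% of genes were called. The members called higher were Penk (0.59 ± 0.20, adjusted p = 0.0211), Pnoc (0.50 ± 0.12, adjusted p = 0.00291), Oprd1 (0.54 ± 0.11, adjusted p = 0.000766) and Oprl1 (0.47 ± 0.08, adjusted p = 0.00021). Those called lower were Tac1 (−0.77 ± 0.24, adjusted p = 0.0124) and Oprk1 (−1.49 ± 0.24, adjusted p = 0.000184). Leaving out 1 library at a time gave 5 to 7 called members. The shares of all genes in those fits are not given here, so nothing about the members is read from that range. The groups did not overlap for Pnoc, Oprd1 and Oprl1 (higher) and Oprk1 (lower), against 25.6% and 22.9% of all genes (48.5% in all).

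The correction divided these 6 genes. Pnoc and Oprl1 stayed past the threshold, at 0.38 ± 0.11 (adjusted p = 0.0154) and 0.34 ± 0.06 (adjusted p = 0.00206). In normalized counts, Pnoc was at 438, 372, 327, 323 and 314 in HT-Flx and at 237, 262, 237, 225 and 291 in WT-Flx, and Oprl1 was at 2067 to 2502 and 1636 to 1830. Pnoc and Oprl1 were thus the 2 members called higher in HT-Flx by both fits. After the correction 3 of the 9 members were called, and 36.3% of all genes, so nothing about this pair is read from the calls. Both also differed with the GC tilt over the 20 libraries at P120. All HT-Flx libraries had a tilt above 0.5 and all WT-Flx libraries one below it, so this split partly restates the group difference. Pnoc was at 288 to 438 in the 9 libraries with a tilt above 0.5 and at 218 to 291 in the other 11, and Oprl1 at 1767 to 2502 and 1577 to 1953. The part of the tilt that the correction leaves in these values was not tested. Oprk1 and Oprd1 lost most of their difference, at −0.40 (adjusted p = 0.0957) and 0.06 (adjusted p = 0.708). Penk (0.37, adjusted p = 0.141) and Tac1 (−0.58, adjusted p = 0.0756) also fell short, and Tac2, the precursor of neurokinin B, came past the threshold at −0.59 (adjusted p = 0.0481) from −0.43 (adjusted p = 0.116).

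Tac2 was at 153, 113, 117, 144 and 83.7 normalized counts in HT-Flx and at 163, 168, 148, 104 and 261 in WT-Flx. The groups overlapped through WT-Flx replicate 4, without which Tac2 also passed in the values as deposited (adjusted p = 0.0285). Penk lost its call without HT-Flx replicate 1 or WT-Flx replicate 4 (adjusted p up to 0.0556). Oprm1 and Pdyn did not pass, at −0.90 ± 0.38 (adjusted p = 0.0538) and 0.58 ± 0.27 (adjusted p = 0.0809). Oprm1 passed without HT-Flx replicate 2 or 4, and Pdyn without HT-Flx replicate 5 or WT-Flx replicate 5 (lowest adjusted p of 0.0136 and 0.0127).

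Markers of some brain regions differed in the same comparison. The 12 hindbrain and midbrain markers had a median log2 fold change of 1.5 in HT-Flx against WT-Flx, with 7 called higher, and the 11 cerebellar granule cell markers one of 0.84, with 4 called higher and 1 lower. After the correction the medians were 1.20 and 0.89, with 1 called higher in the first list and 2 in the second. The sum of the hindbrain and midbrain list was 2162 to 5556 normalized counts in HT-Flx (median 3326) and 395 to 4706 in WT-Flx (median 2747). That of the granule cell list was 32445 to 64926 (median 35161.5) and 9460 to 50493 (median 32166), so the groups overlapped in both sums. No marker of either list was at 0 in these libraries. The 12 medial habenula markers had a median of 0.07, with 3 called higher and 2 lower. After the correction it was 0.27, with 3 and 1. The 14 hypothalamus markers were at 0.20 (3 and 0) and the 11 olfactory bulb markers at 0.12 (2 and 2). After the correction these were at −0.26 and −0.15, with 0 called. Over all genes 33.1% were called higher and 30.5% lower. Of the 21 striatal markers 3 were higher and 4 lower, with a median of −0.25. Drd1, 1 of the 4 called lower and named after its value was seen, was at −0.97 ± 0.31 (adjusted p = 0.0159). It was at −0.47 after the correction (adjusted p = 0.253). Nothing about the neurons that hold Tac1 is read from this 1 marker. The part of these shifts in the member values was not tested.

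**Figure D5:**
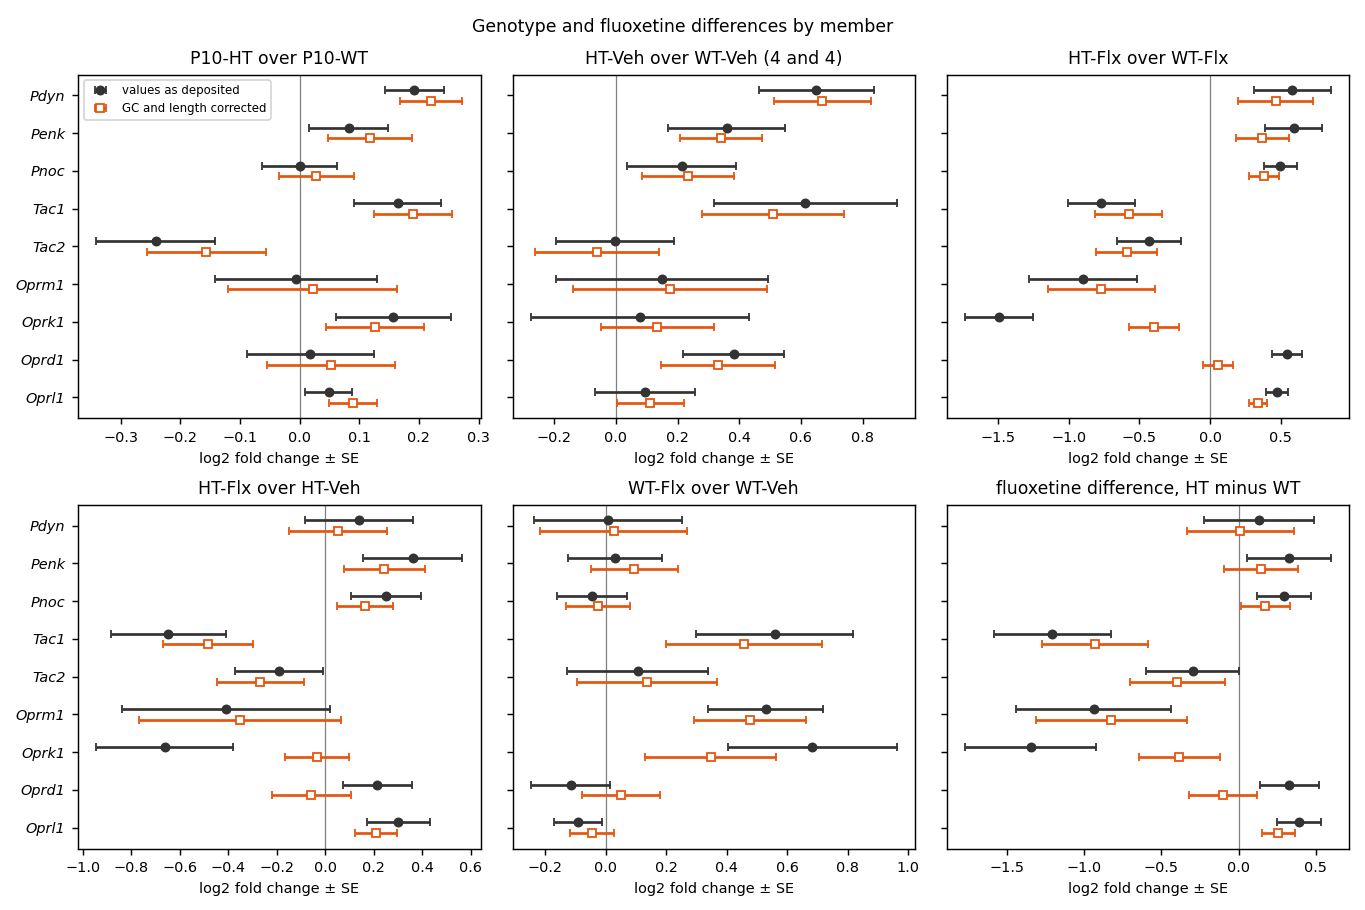
Log2 fold change ± SE (horizontal axis) of the 9 genes in the 5 comparisons of genotype or fluoxetine and, at the lower right, the fluoxetine difference in HT minus that in WT, from the values as deposited (black circles) and after the GC and length correction (open squares). Axes differ between panels. Oprk1 in HT-Flx over WT-Flx moves from −1.49 to −0.40 under the correction, and Oprl1 from 0.47 to 0.34.

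The difference between the fluoxetine effects in HT and WT was fitted over the 20 libraries at P120. It passed the threshold for 3 members, 1 higher in HT and 2 lower, against 27.3% of the 17796 genes (15.8% higher and 11.5% lower). The members were Tac1 (−1.21 ± 0.38, adjusted p = 0.0351), Oprk1 (−1.35 ± 0.42, adjusted p = 0.0353) and Oprl1 (0.39 ± 0.14, adjusted p = 0.0473). Exact two-sided permutation tests, with treatment permuted within genotype over 63504 arrangements, gave p = 0.00879, 0.00948 and 0.0116. After the GC and length correction 0% of genes and none of the members were called by limma, with log2 differences of −0.93 for Tac1 (adjusted p = 0.158), −0.38 for Oprk1 (adjusted p = 0.391) and 0.26 for Oprl1 (adjusted p = 0.183). Without replicate 2 of HT-Veh and of WT-Veh, which go against their labels, none was called either, with log2 differences of −1.38 for Tac1, −1.57 for Oprk1 and 0.38 for Oprl1 (adjusted p-values of 0.0576, 0.0576 and 0.0856). Leaving out single libraries gave 0 to 3 called members, with 0 without HT-Flx replicate 1, WT-Flx replicate 2, 3 or 5, HT-Veh replicate 4 or 5, or WT-Veh replicate 2, 3 or 4, and 1 without HT-Flx replicate 3. The log2 differences in those fits were −1.42 to −1.01 for Tac1, −1.53 to −1.12 for Oprk1 and 0.34 to 0.48 for Oprl1. So the 3 calls held neither under the correction nor without those 2 libraries, and the sign of each held in both. Under the correction the size fell most for Oprk1, and without the 2 libraries it did not fall for Tac1 and Oprk1. The shares of all genes called with libraries left out are not given here. Nothing about the members is therefore read from the counts of calls in those fits.

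In the wider pathway, the HT-Flx and WT-Flx groups differed for 2 higher and 2 lower genes of the 6 in the other opioid and tachykinin list. Tacr3 was at 48.8 to 115 normalized counts in HT-Flx and 116 to 190 in WT-Flx, without overlap, and its log2 fold change of −0.94 ± 0.24 (adjusted p = 0.00432) was −0.44 after the correction (adjusted p = 0.102). Tacr1 was at −0.15 ± 0.14 and Pomc at 0.24 ± 0.58, neither past the threshold. Pomc reached 635 normalized counts in HT-Flx replicate 5 and 496 in WT-Flx replicate 4. The summed pituitary markers reached 1786 in HT-Flx and 2312 in WT-Flx, against 523 in HT-Veh, 955 in WT-Veh and 224 at most at P10. In HT-Flx and in WT-Flx, 2 of the 6 markers were at 0 in some library, and the part of pituitary tissue in Pomc was not tested. Of the 10 processing genes 2 were higher and 4 lower, of the 12 peptidases 6 and 4, of the 23 signaling genes 12 and 6, and of the 24 other neuropeptide genes 9 and 4, where 63.7% of all genes were called. After the correction the counts were 4 higher and 0 lower for processing, 4 and 1 for the peptidases, 5 and 2 for signaling, 2 and 2 for the other neuropeptides and 1 and 0 for the other opioid and tachykinin list, where 36.3% of all genes were called. Mme, which encodes neprilysin, an enkephalin-degrading peptidase, was at −1.69 ± 0.31 (adjusted p = 0.000475), and at −0.58 after the correction (adjusted p = 0.0181). The convertase Pcsk1 was at −1.07 ± 0.20 (adjusted p = 0.00052) and at 0.03 after it (adjusted p = 0.903). In the P10, vehicle and within-genotype fluoxetine comparisons no gene of these 5 lists was called.

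Within groups, the members' deviations across the 30 libraries were compared with those of 14525 genes (mean of at least 50 normalized counts). Group means were subtracted first, and r is Pearson's correlation of log2 values, given as a description without a test, since the libraries share their tilt and their tissue makeup. The 3 genes most like Penk were Ankrd63 (r = 0.946), Drd2 (r = 0.942) and Adcy5 (r = 0.940), and those most like Pdyn were Pde2a (r = 0.937), Actn2 (r = 0.928) and Rxrg (r = 0.917). Drd2 and Adcy5 are known as striatal transcripts. For Tac1 they were Arpp19 (r = 0.924), Stk26 (r = 0.847) and Cdh9 (r = 0.818), and for Tac2 Dclk3 (r = 0.877), Jakmip1 (r = 0.858) and Cd4 (r = 0.858). For Pnoc they were Zbtb17 (r = 0.883), Sgsm3 (r = 0.833) and Bnip1 (r = 0.815).

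For the receptors, the genes most like Oprk1 were B230334C09Rik (r = 0.948), Dgkb (r = 0.947) and St6gal2 (r = 0.944), and those most like Oprm1 were Zfhx4 (r = 0.933), Zbtb20 (r = 0.922) and Cntnap5b (r = 0.901). Oprl1 was most like Atmin (r = 0.911), Pcyox1 (r = 0.881) and Snx19 (r = 0.878), and Oprd1 most like Ankrd33b (r = 0.835), Wipf3 (r = 0.819) and Zfp831 (r = 0.816). Among the members, the pair most alike was Pdyn and Penk (r = 0.867), followed by Pdyn and Tac2 (r = 0.819). A precursor and the receptor it is best known for were less alike, at 0.467 for Penk and Oprd1, 0.309 for Pnoc and Oprl1 and 0.273 for Pdyn and Oprk1. The pairs most opposed were Oprm1 with Oprl1 (r = −0.601) and Oprk1 with Oprl1 (r = −0.573).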

How the data were processed

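Poly-A RNA of whole brain, 1 mouse per library, was sequenced paired-end. The authors quantified transcripts with Salmon 1.1.0 (GC bias correction) on GRCm38, summed them per gene, and divided by DESeq2 1.30.1 size factors (R 4.1.1 in the submitters' processing notes). The deposited values are these normalized counts, a signal in 1 table for all 30 libraries. They are not whole reads, so depth is unknown, no count test was run, and the number of libraries limits the precision. Groups follow the labels.

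Fits used limma 3.58.1 (R 4.3.3) on log2(value + 1) with a mean-variance trend, genes with a mean of at least 10 and Benjamini-Hochberg adjustment over all genes tested (threshold 0.05). Fold changes on this scale understate those of low genes. Each fit held only the compared groups, and the fluoxetine difference between genotypes all 4 P120 groups. Single genes were tested by exact two-sided permutation (scipy). The GC and length correction subtracted, per library, the mean deviation of genes in 100 bins (10 by GC content, 10 by length within each). The fits were tested on simulated data. Alternatives were other pseudocounts, filters and scalings, no such trend, a replicate block, the correction, and fewer or more libraries.

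The members and all gene lists were chosen with earlier results of these data known. Named were the 9 members, called list genes (at most 5 a list, by adjusted p), Pomc and the tachykinin receptors, and the 3 genes most like each member. Drd1 and Drd2 were named after their values were seen. Symbols and transcript sequences came from GENCODE M21, and 99.9% of genes had a symbol.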

Additional observations from a re-analysis of the deposited data

Results flagged for a closer look

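In the values as deposited, the test of the difference between the fluoxetine effects in HT and WT passed the threshold for 3 members, as for 27.3% of all genes: the log2 effect in HT minus that in WT was −1.21 for Tac1, −1.35 for Oprk1 and 0.39 for Oprl1. None of the 3 passed after the GC and length correction (adjusted p = 0.158, 0.391 and 0.183 in limma), where 0% of genes were called, or without replicate 2 of HT-Veh and of WT-Veh. The share of all genes called without those 2 libraries is not given here.

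Of the 54 combinations of member and group, 4 held a library far from the other 4. Chance flags about 1 in 20 groups. Oprm1 was at 103 normalized counts in P10-WT replicate 3. Oprk1 was at 268 in WT-Flx replicate 4, the lowest of its group. Oprd1 was at 301 in P10-HT replicate 5, although that group spans only 276 to 301. Oprl1 was at 2067 in HT-Flx replicate 4, the lowest of its group.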

How the results depend on the processing

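Of 1594 alternative values of the members' fold changes, 1492 kept their side of the threshold or their size, 75 lost a call, 15 gained one, 12 uncalled values moved by more than the spread, and 0 called values changed sign. The 54 group means kept their values under another scaling. The number of called members in HT-Flx against WT-Flx fell from 6 to 3 under the GC and length correction and to 2 under the correction with a replicate block. Under the correction without the block, the called share of all genes went from 63.7% to 36.3%. For the difference of the fluoxetine effects it fell from 3 to 0 under the correction, with or without the replicate block, and to 0 without replicate 2 of HT-Veh and of WT-Veh, which go against their labels, with or without the correction (chosen after seeing the data), and it was 0 to 3 when single libraries were left out. The called share of all genes went from 27.3% to 0% under the correction alone. The shares in the other fits are not given here, so nothing about the members is read from their counts. The within-tilt values were also chosen after seeing the data.

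Replicate numbers do not pair these mice: deviations of same-numbered libraries had a mean correlation between −0.049 and 0.179, and none of the comparisons had every pair above 0.1. With a replicate block, 6 members were called in HT-Flx against WT-Flx, 2 for the difference of the fluoxetine effects, 6 between the ages in WT and 4 in HT, and 0 in the other comparisons. In the main fits, without the block, 63.7%, 27.3%, 58.3% and 51.1% of all genes were called, in the same order. The shares under the block are not given here, so nothing about the members is read from these counts.

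Depth is unknown, so the precision of low members such as Oprm1 rests on the spread of 5 libraries. Nothing says that mice of a group came from separate litters.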
